A study of Mus musculus with 16 samples.

Results

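The effect of BMS493 on gene expression in the fetal lung of the A/J mouse was measured in 8 RNA sequencing libraries out of 16 in the series. Of these, 4 came from fetuses of treated dams and 4 from fetuses of control dams, and the number of dams is not stated. A/J is an inbred mouse strain, and the other 8 libraries came from C57BL/6J (B6), a second inbred strain. BMS493 acts on every retinoic acid receptor as an inverse agonist, a ligand that holds the receptor in its repressive state. A/J dams received either 3.75 µg of BMS493 per g per day or corn oil, both by mouth, from embryonic day 9.5 (E9.5) to E14.5. Whole lungs were taken at E14.5, from fetuses that the design text gives as male. No genetic change was made in either group, and the dose reached the fetus through the dam. No label ties a fetus to a litter, so each p-value below measures the spread between these libraries, which may in part be technical. Fetuses of a group may be littermates. In that case an effect of dam or litter cannot be told apart from that of BMS493, and the p-values could be too small.

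Retinoic acid is made from retinol, the circulating form of vitamin A, in a pair of oxidation steps. It binds nuclear receptors (RAR, paired with RXR) that sit on DNA at repeats of a short site, where they recruit corepressors without ligand and coactivators with it. Some of the genes they switch on act back on the signal, by storing retinol, by reducing retinaldehyde, by breaking down retinoic acid or by adding receptor. In the fetal lung the signal is known for its part in bud formation, in the patterning of the mesenchyme and in the timing of airway smooth muscle.

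Between 17468843 and 23139892 counts per library were assigned to genes in A/J controls, and between 20001844 and 22721678 with BMS493. They made up 71.7% to 75.8% and 71.8% to 74.8% of all fragments in the count files. Levels are given as counts per 1000000 assigned counts (CPM), scaled by the trimmed mean of M values (TMM), in the order of replicates 1 to 4. A gene was called where the edgeR quasi-likelihood test, adjusted over the 17276 genes tested, gave an adjusted p under 0.05. Fold changes are log2 values, BMS493 minus control, with their standard error (SE). Replicates 1 and 2 and replicates 3 and 4 of each group carry library names from separate runs of numbers, and fold changes within each pair of replicates are given for the leading genes. The B6 libraries enter the A/J comparison through the shared estimate of the spread and through which genes were tested. Between 77 and 121 genes were called in A/J when 1 of them was left out, the most without B6 BMS493 replicate 3.

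Far more genes were lower than higher with BMS493 in A/J lung. Of 17276 genes tested, 84 were called (0.486%), 73 of them lower (0.423%) and 11 higher (0.0637%). The log2 fold changes of the genes that fell ran from -5.53 to -0.28, and those of the genes that rose from 0.51 to 2.41. The median change in either direction was 0.68, 30 genes changed by at least 1 and 26 by less than 0.5. The groups did not overlap for any of the 84, against 841 of all genes tested (4.87%). The same sign in replicates 1 and 2 and in replicates 3 and 4, seen for all 84, follows from this and is no separate check. Over all genes tested the median fold change was -0.0019, 50.7% were lower, and 1076 had an unadjusted p under 0.05 (6.23%).

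The calls held to different degrees when libraries or settings were changed. In the 8 fits that each left out 1 A/J library, 44 genes were called every time, 37 lower and 7 higher, and the other 40 were lost at least once. Such a fit has fewer libraries, so a lost call need not have rested on the library left out. The fewest calls, 52, were made without BMS493 replicate 3, and 55 were made without control replicate 1 and without control replicate 2. With no filter on low counts 178 genes were called, of which 73.6% were lower, against 86.9% of the 84. Leaving out 1 B6 library kept between 76 and 84 of the 84. With the library set (replicates 1 and 2 against 3 and 4) as a covariate within strain, 80 genes were called and 76 of the 84 remained. The 8 lost then were Sfrp1 (adjusted p = 0.0953), Plagl1 (0.0762), Gabra3 (0.0716), Prrx1 (0.0526), AC160336.1 (0.0516), Enpep (0.0515), Gata5 (0.0511) and Sfrp2 (0.0511). Counting the first strand alone, 81 genes were called and 69 of the 84 remained. Myh8 was not tested there, and those lost included Zfp36l1-ps, Scnn1g, Gabra3, Snx22, Slc16a12, Lrrc32, Aifm2, Kyat3, Mgll, St6gal1, Prrx1, Plxdc1 and Tpsb2. Where a call is said below to be lost without certain libraries, each of them was left out on its own, and the highest adjusted p among the 8 such fits is given.

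The leading changes were in genes that handle retinoids. Lrat (ENSMUSG00000028003, chromosome 3) encodes lecithin retinol acyltransferase, which turns retinol into its storage ester. Its level was 18.2, 18.01, 14.7 and 15.1 CPM in the 4 controls and 0.232, 0.176, 0.558 and 0.453 CPM with BMS493. The BMS493 libraries held 5, 4, 12 and 9 counts of the gene, against 378, 416, 322 and 267 in controls, so little of the transcript was left. The log2 fold change came to -5.53 (SE 0.26, adjusted p = 3.21e-13), or -6.44 in replicates 1 and 2 and -4.86 in replicates 3 and 4.

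Cyp26b1 (ENSMUSG00000063415, chromosome 6), which encodes a hydroxylase that clears retinoic acid, measured 27.4, 21.4, 14.98 and 15.9 CPM in controls and 1.35, 0.88, 1.21 and 0.755 CPM with BMS493. Control replicates 1 and 2 were higher than 3 and 4, and all 4 stood far above the treated libraries. The fold change was -4.24 (SE 0.29, adjusted p = 8.22e-08), or -4.46 and -3.96 within the pairs of replicates. Its relatives Cyp26a1 and Cyp26c1 had at most 3 counts in any A/J library and were not tested, and Cyp2s1 (0.12, SE 0.24) was not called. Dhrs3 (ENSMUSG00000066026, chromosome 4) encodes a reductase that returns retinaldehyde to retinol. It measured 17.9, 20.6, 16.4 and 15.4 CPM in controls and 4.96, 3.7, 3.67 and 4.48 CPM with BMS493, a fold change of -2.07 (SE 0.17, adjusted p = 2.39e-08). The lowest control lay at more than 3 times the highest treated library. The calls of Lrat, Cyp26b1 and Dhrs3 held under every alternative that was run.

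Rarb (ENSMUSG00000017491, chromosome 14) encodes retinoic acid receptor beta, and its own promoter is a textbook target of the receptors. Controls held 8.73, 10.2, 9.52 and 7.94 CPM and BMS493 lungs 2.78, 3.08, 2.56 and 3.98 CPM, without overlap. The fold change was -1.56 (SE 0.21, adjusted p = 9.11e-05), or -1.69 and -1.42 within the pairs of replicates. Of its exon bases, 38.4% overlap another gene in the annotation, and 34.1% of the 50-base windows of its transcripts also occur in another gene, mostly Top2b. Counted on the first strand alone, the fold change was -1.54 (adjusted p = 8.04e-09). Since this gene gives the pathway its best known response element, its promoter from RefSeq (GRCm38.p6, chr14:16575427-16575726, minus strand, 250 bases before to 50 bases after the transcript start) is shown. Capitals mark a direct repeat of the nuclear receptor core site with a spacer of 5 bases (DR5), which starts 53 bases before the transcript start.
Rarb: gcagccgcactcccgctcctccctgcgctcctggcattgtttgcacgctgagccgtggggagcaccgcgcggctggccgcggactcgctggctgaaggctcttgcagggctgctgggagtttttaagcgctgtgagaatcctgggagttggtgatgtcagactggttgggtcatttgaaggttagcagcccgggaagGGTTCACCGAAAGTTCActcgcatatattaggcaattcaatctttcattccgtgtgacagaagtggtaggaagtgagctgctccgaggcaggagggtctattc

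Repeats of the core site with a spacer of 1, 2 or 5 bases (DR1, DR2 and DR5) were searched on both strands in the RefSeq promoters of the same length, which covered 60 of the 81 called coding genes. A DR5 was found in 32 of all 32851 promoters (0.0974%). Among the 52 genes lower with BMS493 that had a promoter in the table, 2 held one, Rarb and Tnfsf13b, and none held a DR1 or DR2. Lrat, Cyp26b1, Dhrs3 and the others had no such letters in this window, which says nothing of sites elsewhere. A match is a description of the letters, and binding was not measured.

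Few other genes of retinoid handling were called. Of 19 tested synthesis and storage genes, Lrat and Dhrs3 were called lower (0.423% of all genes tested), and the median was -0.011. The retinol dehydrogenases Rdh10 (-0.10), Rdh11 (-0.041), Rdh13 (0.013), Rdh14 (0.069) and Dhrs4 (-0.048) and the low genes Rdh5 (0.21) and Rdh12 (0.45) were not called. Aldh1a2, the main enzyme that makes retinoic acid in the embryo, measured 53.97, 54.2, 57.3 and 69.5 CPM in controls and 66.4, 59.4, 70.7 and 69.1 CPM with BMS493 (0.18, SE 0.16, adjusted p = 0.993). Its groups overlapped, as did those of the related Aldh1a1 (0.074), Aldh1a3 (0.49) and Aldh1a7 (-0.041). Adh1 (0.26), Adh5 (-0.011), Adh7 (-0.091), the esterase and ester synthesis genes Lipe (-0.34) and Dgat1 (0.10) and the carotene oxygenase Bco1 (-0.32) were not called either. The 6 that were not tested, Rdh1, Dhrs9, Aldh8a1, Rpe65, Bco2 and Sdr16c5, had at most 5 counts in any A/J library.

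Among uptake and binding genes none of 7 tested was called, with a median of -0.067. In 2 of the 7, Stra6 among them, all treated libraries lay under all controls (2.84% of all genes tested). Stra6, the cell surface receptor for retinol bound to its carrier, measured 8.44, 12.9, 10.4 and 8.06 CPM in controls and 5.66, 4.97, 5.3 and 7.76 CPM with BMS493. The fold change of -0.76 (SE 0.21) did not pass (adjusted p = 0.172). Crabp2, which carries retinoic acid to the nucleus, overlapped between groups (-0.53, adjusted p = 0.777), and so did Crabp1 (0.42), Rbp4 (0.22), Fabp5 (-0.067) and the endocytic receptor gene Lrp2 (0.0011).

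Of the 6 receptor genes only Rarb was called lower (0.423% of all genes tested). Rara was at 0.035 (SE 0.071), Rarg at -0.14 (SE 0.089), Rxra at 0.08 (SE 0.059), Rxrb at 0.072 (SE 0.064) and the scarce Rxrg at -0.27 (SE 0.45). Of 14 corepressor and coactivator genes Nrip1 was called lower (0.423% of all genes tested). It encodes a cofactor that dampens nuclear receptors and is itself induced by retinoic acid. Nrip1 held 101, 103, 84.98 and 94.8 CPM in controls and 77.2, 78.6, 68.9 and 71.9 CPM with BMS493, a small fall (-0.37, SE 0.082, adjusted p = 0.033). The groups lay apart, but the call was lost without control replicates 1, 2 and 4 and BMS493 replicates 1, 3 and 4 (adjusted p up to 0.172). The corepressor complex genes Ncor1 (0.049), Hdac3 (0.011), Tbl1x (-0.082) and Tbl1xr1 (0.011) and the scarce Nrip2 (0.33) were not called. Nor were the coactivator genes Ncoa1 (0.031), Ncoa2 (0.0089), Ncoa6 (-0.0019), Crebbp (0.0072), Ep300 (0.084) and Med1 (0.091). Ncoa3 was lower without overlap but not called (-0.30, adjusted p = 0.141).

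Of 25 known retinoic acid target genes listed, 20 were tested and 6 were called, all lower (0.423% of all genes tested): Lrat, Cyp26b1, Dhrs3, Rarb, Hoxa5 and Nrip1. The median was -0.37 against -0.0019 over all genes, 18 of 20 were lower, and 10 did not overlap between groups in that direction (2.84% of all genes). Besides the 6, these included Stra6, Hoxa4 (-0.57, adjusted p = 0.0625) and Tshz1 (-0.29, adjusted p = 0.16). Crabp2, Tgm2 (-0.26), Meis2 (-0.25), Hoxa2 (-0.37) and Rarres1 (-0.27) were lower with overlap. Meis1 (-0.05) and Hoxb5 (-0.074) were near 0, and Hoxb4 (0.011) and Rarres2 (0.079) were the 2 that were not lower. Which genes are targets was decided with earlier results of these data known, so the direction is a description.

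**Figure D1:**
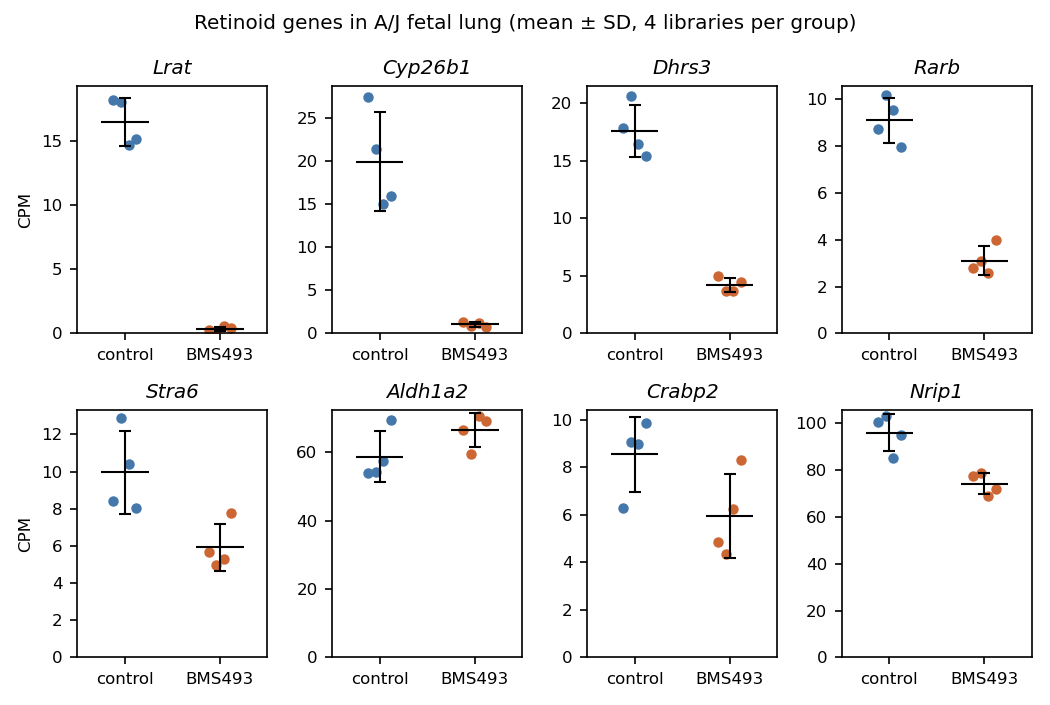
Levels (CPM, linear axes from 0, one scale per gene) of 8 retinoid genes in the 4 control and 4 BMS493 lungs of A/J, each point 1 library, with the mean and SD as bars. Lrat fell from a mean of 16.5 to 0.355 CPM and Cyp26b1 from 19.9 to 1.05 CPM, while the groups of Crabp2 overlapped.

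Transcription factor genes were then examined by family. Of 501 tested in 17 families, 12 were called (0.486% of all genes tested), 9 lower and 3 higher, and the median was -0.015. The largest change among the 12 called was in Pou3f1 (ENSMUSG00000090125, chromosome 4), a POU homeobox gene known from Schwann cells. It measured 5.59, 3.72, 2.96 and 3.18 CPM in controls and 0.742, 0.704, 0.698 and 1.21 CPM with BMS493. Control replicate 1 was the highest and BMS493 replicate 4 stood above the other treated libraries, without reaching the controls. The fold change was -2.21 (SE 0.30, adjusted p = 0.000123), or -2.68 and -1.69 within the pairs of replicates.

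Meox2, Foxf2 and Prrx1 were called higher, and are given together as mesenchymal genes, a grouping made after the values were seen. Of the 18 tested genes in the list of lung mesenchyme and fibroblasts, Meox2 was called higher and Hoxa5 lower, and the median was 0.012. Meox2, a homeobox gene of the mesenchyme, rose from 41.3, 47.1, 42.1 and 42.2 CPM in controls to 55.7, 65.8, 64.6 and 60.4 CPM (0.51, SE 0.068, adjusted p = 9.42e-05). Foxf2, a forkhead gene of the mesenchyme next to epithelium, rose from 77.5, 74.6, 80.3 and 65.3 CPM to 98.1, 104, 112 and 115 CPM (0.52, SE 0.071, adjusted p = 0.000121). In neither did any control reach a treated library, and both calls held when any 1 A/J library was left out. The paired-related homeobox gene Prrx1, also mesenchymal, had 26.5, 30.99, 25.1 and 21.95 CPM in controls and 32.2, 42.4, 40.9 and 38.2 CPM with BMS493 (0.55, SE 0.12, adjusted p = 0.0312). BMS493 replicate 1 lay just above the highest control, and the call was lost without control replicates 1, 3 and 4 and BMS493 replicates 2, 3 and 4 (adjusted p up to 0.144). Of the close relatives, Foxf1 was lower without overlap but not called (-0.25, SE 0.083, adjusted p = 0.337).

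Of the transcription factor genes called lower, Hoxa5, which is needed for normal trachea and lung mesenchyme, changed most next to Pou3f1 and Rarb. Its levels were 147, 132, 132 and 143 CPM in controls and 96.02, 101, 87.7 and 94.9 CPM with BMS493, with the lowest control well above the highest treated library (-0.55, SE 0.068, adjusted p = 4.15e-05). Tbx3, a T-box repressor of the lung mesenchyme, had 141, 126, 122 and 118 CPM and 101, 106, 93.3 and 97.4 CPM (-0.35, SE 0.062, adjusted p = 0.00349). The Tbx3 call, like that of Hoxa5, held without any 1 A/J library.

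Tshz3, a zinc finger homeobox gene known from smooth muscle of the ureter, went from 58.3, 46.9, 44.6 and 53.5 CPM to 35.6, 36.3, 33.9 and 36.5 CPM (-0.51, SE 0.10, adjusted p = 0.0164). Gata5, a zinc finger gene known from heart and endoderm, went from 89.9, 95.4, 90.9 and 90.2 CPM to 65.2, 63.04, 58 and 73.99 CPM (-0.49, SE 0.10, adjusted p = 0.0215). In both the groups lay clearly apart. The repressor gene Klf3 changed less (-0.30, SE 0.062, adjusted p = 0.0164), from a mean of 108 ± 7.51 to 87.4 ± 5.42 CPM (SD, n = 4 each), as did the imprinted zinc finger gene Plagl1 (-0.31, SE 0.072, adjusted p = 0.0488), from 767 ± 80.9 to 618 ± 26.6 CPM. None of these 4 calls held in all 8 fits that left out 1 A/J library. Tshz3 was lost without control replicates 1 and 4 and BMS493 replicates 1 and 3, Gata5 without control replicates 1, 2, 3 and 4 and BMS493 replicates 1, 2 and 3, Klf3 without control replicates 1 and 2 and BMS493 replicates 1, 3 and 4 and Plagl1 without control replicates 1, 2 and 4 and BMS493 replicates 1, 2, 3 and 4, with adjusted p of up to 0.108, 0.114, 0.109 and 0.199.

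No member was called among 68 basic helix-loop-helix, 14 Sox, 22 ETS, 16 SMAD and GLI, 18 interferon regulatory factor and STAT, 10 NF-kB and NFAT, 44 AP-1, ATF and CEBP, 11 RUNX, TEAD and NFI, and 27 AP-2, GRHL, p53 and LEF genes. Their medians ran from -0.069 for Sox to 0.024 for the RUNX, TEAD and NFI genes. Closest to the threshold among them were the AP-1 gene Jun (-0.35, adjusted p = 0.06) and the ETS genes Etv1 (0.38, adjusted p = 0.0898) and Etv5 (-0.26, adjusted p = 0.0919).

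**Figure D2:**
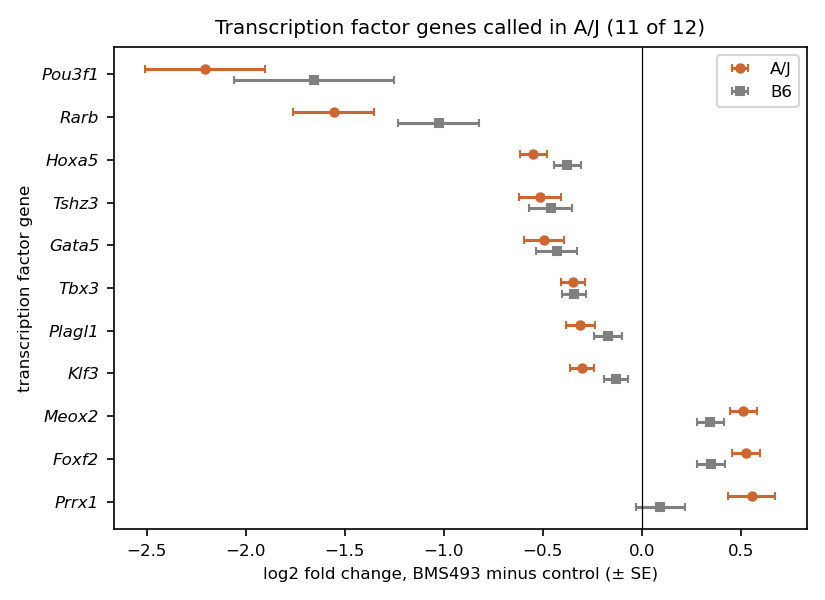
The 11 transcription factor genes shown were called in A/J, with the log2 fold change (BMS493 minus control, horizontal axis) and SE in A/J (circles) and, for the same genes, in B6 (squares). Values in A/J run from -2.21 for Pou3f1 to 0.55 for Prrx1, and 5 of all 12 called were also called in B6.

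Hox genes set position along the body axis, and those near the start of a cluster are known for an early response to retinoic acid. Of 39 in the files 18 were tested, and the other 21 had at most 15 counts in any A/J library. The median of the 18 was -0.40, 15 were lower and 7 did so without overlap (2.84% of all genes tested), while Hoxa5 alone was called (0.423% of all genes tested were called lower). All 7 tested Hoxa genes were lower, from -0.37 to -0.82, with a median of -0.57, and 4 of them did not overlap between groups. Hoxa3 (-0.43, adjusted p = 0.121), Hoxa4 (-0.57, adjusted p = 0.0625) and Hoxa6 (-0.82, adjusted p = 0.234) joined Hoxa5 in this. Hoxa7 was at -0.82 with overlap in BMS493 replicate 2.

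The 8 tested Hoxb genes had a median of -0.024. Hoxb5, known from lung branching, measured 116, 102, 109.6 and 104 CPM in controls and 93.4, 98.9, 110.4 and 107 CPM with BMS493, and its groups overlapped (-0.074, SE 0.084). Hoxb3 (-0.0046), Hoxb4 (0.011) and Hoxb6 (0.014) were close to 0, and Hoxb8 (-0.44, adjusted p = 0.381) was the 1 gene of this cluster that was lower without overlap. From the Hoxc cluster, Hoxc4 held 4.77, 4.8, 4.6 and 7.32 CPM in controls and 2.92, 1.89, 1.16 and 2.22 CPM with BMS493 (-1.38, SE 0.32, adjusted p = 0.0556). Hoxc5 held 2.41, 1.56, 2.32 and 2.21 CPM and 0.649, 0.88, 0 and 0.201 CPM (-2.26, SE 0.53, adjusted p = 0.0625). Both were lower in all 4 treated lungs and missed the threshold narrowly. Whether clusters differ from each other was not tested. Counting the first strand alone, Hoxa3 (-0.54, adjusted p = 0.00656), Hoxa4 (-0.60, adjusted p = 0.0405) and Hoxc5 (-2.53, adjusted p = 0.0285) passed as well, and 33.4%, 16% and 5.37% of their exon bases overlap another gene.

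**Figure D3:**
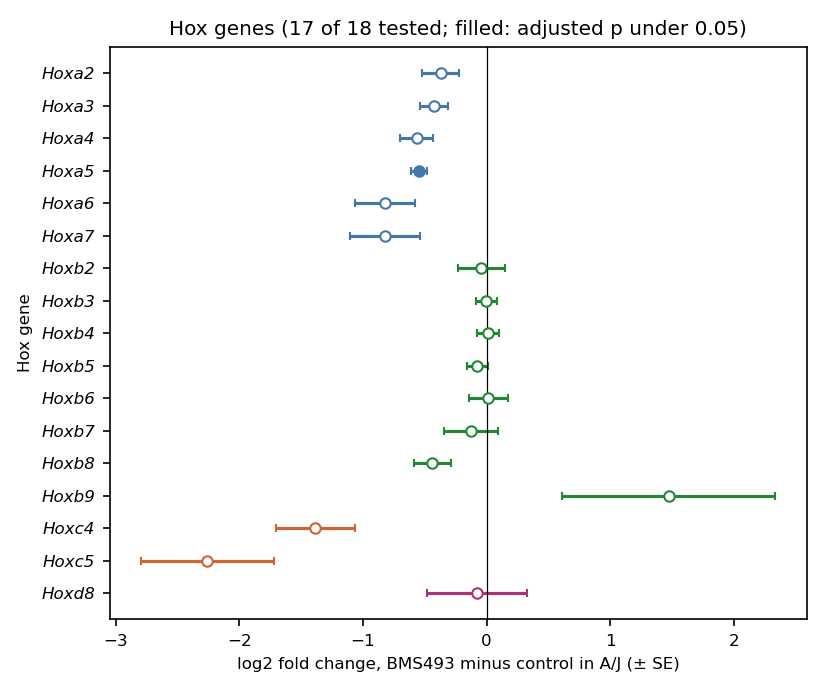
Log2 fold change (BMS493 minus control in A/J, horizontal axis, with SE) of 17 tested Hox genes in cluster order, with a colour for each cluster and a filled circle for an adjusted p under 0.05. The Hoxa genes shown lie below 0, most Hoxb genes lie near 0, and Hoxb9, at 1.47, has the widest SE (0.86).

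Large falls were also called among guanylate-binding protein genes. Guanylate-binding proteins are GTPases that cells make in response to interferon. Of 11 listed genes 8 were tested and 3 were called, all lower (0.423% of all genes tested), with a median of -1.02. That median was -0.65 without control replicate 4, -1.56 without BMS493 replicate 1, -0.62 with a filter at a mean of 1 CPM, -0.67 in replicates 1 and 2 and -1.82 in replicates 3 and 4. The summed level of the 11 was 39.5 to 43.7 CPM in controls and 18.9 to 24.9 CPM with BMS493. Gbp2 (ENSMUSG00000028270, chromosome 3) measured 9.5, 9.65, 10.8 and 11.9 CPM in controls and 2.18, 1.41, 1.63 and 1.31 CPM with BMS493 (-2.67, SE 0.19, adjusted p = 1.67e-09). Gbp2b (ENSMUSG00000040264, chromosome 3) measured 7.09, 7.27, 7.65 and 7.09 CPM and 1.02, 1.06, 0.837 and 1.51 CPM (-2.72, SE 0.24, adjusted p = 5.06e-07). Both were tight within groups and far apart between them. About 2% of the 50-base windows of either gene (2.03% and 1.84%) also occur in another gene.

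Gbp5 (ENSMUSG00000105504, chromosome 3) had 2.41, 1.34, 2.78 and 2.04 CPM in controls and 0.603, 0.616, 0.465 and 0.302 CPM with BMS493 (-2.09, SE 0.42, adjusted p = 0.0149). The treated libraries held 13, 14, 10 and 6 counts, and the call was lost without control replicates 1 and 3 and BMS493 replicates 3 and 4 (adjusted p up to 0.0818). Gbp3 followed the same direction without being called, at 3.86, 5.06, 4.37 and 4.42 CPM and 2.23, 2.42, 2.33 and 1.96 CPM (-0.99, adjusted p = 0.108), again without overlap. The 3 called members lie on chromosome 3, where Gbp7 (-0.24) overlapped between groups. On chromosome 5, Gbp4 (0.071) and Gbp9 (-0.042) were near 0, and Gbp8, with at most 27 counts in a library, was at -1.06 (SE 0.71, adjusted p = 0.949).

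Other genes that interferon induces held no call among 30 tested, with a median of -0.029 and 19 lower, and Iigp1 (0.083) and Ifitm2 (-0.051, SE 0.33) stand for them. Irf1 (-0.11, SE 0.12), whose protein acts on such promoters, overlapped between groups. None of 8 tested genes of interferons and their receptors was called, among them Jak1 (-0.036) and Ifnar1 (-0.052). Ifng, Ifnb1, Ifnl2 and Ifnl3 had no counts in the 8 lungs.

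The B cell survival factor gene Tnfsf13b (ENSMUSG00000031497, chromosome 8), whose protein is known as BAFF, was the 1 gene called among 23 tested of the TNF superfamily. It measured 9.69, 12.1, 9.88 and 11.8 CPM in controls and 2.5, 0.836, 2.14 and 2.87 CPM with BMS493, and BMS493 replicate 2 was the lowest (-2.39, SE 0.30, adjusted p = 0.000123). The median of the family was -0.021. Its relative Tnfsf13 (-0.42, SE 0.57) and the receptor gene Tnfrsf13b (-0.29, SE 0.31) were not called. Il33 (ENSMUSG00000024810, chromosome 19), an alarmin released by damaged barrier cells, held 3.76, 3.68, 4.05 and 2.95 CPM in controls and 1.07, 0.22, 1.3 and 0.705 CPM with BMS493. These were 78, 85, 89 and 52 counts against 23, 5, 28 and 14, without overlap (-2.13, SE 0.31, adjusted p = 0.000299). Its receptor gene Il1rl1 (0.50, SE 0.31), the alarmin gene Tslp (0.36) and the receptor gene Il17rb (-0.086) were not called.

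The promoters of the 3 called Gbp genes and of Tnfsf13b are shown because these genes fell while no other listed interferon-induced gene was called, and the letters let their elements be compared. They come from RefSeq (GRCm38.p6, plus strand), as chr3:142620413-142620712 for Gbp2, chr3:142594597-142594896 for Gbp2b, chr3:142496684-142496983 for Gbp5 and chr8:10006217-10006516 for Tnfsf13b. Capitals mark an interferon-stimulated response element (ISRE, searched as GAAA and GAAA with 2 bases of any kind between them), an interferon-gamma activated site (GAS, searched as TTCNNNGAA) or, in Tnfsf13b, a DR5.
Gbp2: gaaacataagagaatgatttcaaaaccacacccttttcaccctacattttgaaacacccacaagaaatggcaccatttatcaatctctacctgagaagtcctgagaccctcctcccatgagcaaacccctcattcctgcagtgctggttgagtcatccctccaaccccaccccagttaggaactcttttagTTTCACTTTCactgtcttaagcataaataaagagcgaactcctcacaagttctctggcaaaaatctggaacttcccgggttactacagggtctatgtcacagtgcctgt
Gbp2b: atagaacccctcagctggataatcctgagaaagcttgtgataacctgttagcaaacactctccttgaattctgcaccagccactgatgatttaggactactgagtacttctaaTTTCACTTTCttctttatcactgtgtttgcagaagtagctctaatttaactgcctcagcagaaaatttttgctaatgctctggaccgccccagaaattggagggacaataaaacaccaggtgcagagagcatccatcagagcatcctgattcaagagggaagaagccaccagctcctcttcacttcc
Gbp5: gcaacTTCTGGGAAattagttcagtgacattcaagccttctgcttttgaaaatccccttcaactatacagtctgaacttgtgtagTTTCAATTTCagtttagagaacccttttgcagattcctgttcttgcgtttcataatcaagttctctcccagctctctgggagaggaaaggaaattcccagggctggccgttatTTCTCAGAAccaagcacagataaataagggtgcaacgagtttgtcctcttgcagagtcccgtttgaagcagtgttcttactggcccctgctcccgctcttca
Tnfsf13b: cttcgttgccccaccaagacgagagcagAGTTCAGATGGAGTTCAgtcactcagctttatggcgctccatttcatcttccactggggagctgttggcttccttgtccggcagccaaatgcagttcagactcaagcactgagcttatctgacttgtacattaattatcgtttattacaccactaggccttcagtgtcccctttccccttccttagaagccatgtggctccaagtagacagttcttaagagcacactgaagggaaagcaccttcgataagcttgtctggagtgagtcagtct

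Both strands were searched. Gbp2 and Gbp2b held the same ISRE letters on the minus strand, GAAAGTGAAA, starting 59 and 137 bases before the transcript start. In Gbp5 an ISRE (GAAATTGAAA, minus strand) started at 165 bases and GAS matches at 245 and 52 bases before the start. Tnfsf13b held the DR5 at 222 bases before this start, and its promoter from a second start held GAAAGTGAAA on the plus strand 16 bases before that start. ISRE letters were in 3.44% of all 32851 promoters and GAS letters in 8.30%, both more often than a DR5. Of the 52 genes lower with BMS493, 5 held an ISRE, namely Gbp2, Gbp2b, Gbp5, Tnfsf13b and the retinoid gene Dhrs3, against 3.99% of all genes in the table. A GAS was held by 3, namely Gbp5, Enpep and Rarb (there inside its DR5), against 9.55% of all genes. None of the 8 genes higher with BMS493 that had a promoter in the table held any of these elements.

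Protease genes of mast cells, tissue cells that store proteases and histamine in granules, rose. Of 24 listed genes 11 were tested, and 3 were called, all higher (0.0637% of all genes tested). The chymase gene Cma1 (ENSMUSG00000022225, chromosome 14) went from 1.16, 0.822, 1.18 and 0.908 CPM in controls to 2.32, 3.08, 6.19 and 5.14 CPM (2.03, SE 0.35, adjusted p = 0.00281). Carboxypeptidase A3, encoded by Cpa3 (ENSMUSG00000001865, chromosome 3), went from 1.64, 1.99, 2.6 and 2.89 CPM to 4.5, 4.62, 9.63 and 7.96 CPM (1.55, SE 0.27, adjusted p = 0.0032). In both genes BMS493 replicates 3 and 4 were above replicates 1 and 2, and the fold changes within the pairs were 1.44 and 2.42 for Cma1 and 1.32 and 1.68 for Cpa3. The tryptase gene Tpsb2 (ENSMUSG00000033825, chromosome 17) held 0.868, 0.866, 1.18 and 0.964 CPM in controls and 1.9, 2.11, 3.07 and 3.93 CPM with BMS493 (1.49, SE 0.33, adjusted p = 0.033). This call was lost without control replicates 1, 2, 3 and 4 and BMS493 replicates 3 and 4 (adjusted p up to 0.17).

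Hdc, which encodes the enzyme that makes histamine, had 1.3, 0.476, 0.82 and 2.16 CPM in controls and 2.83, 3.39, 8 and 2.42 CPM with BMS493. All treated libraries were above all controls and BMS493 replicate 3 was far above the rest, but the fold change of 1.84 (SE 0.42) was not called (adjusted p = 0.0625). The defining receptor gene Kit (-0.31), Gata2 (0.20), Mitf (0.11), Slc18a2 (-0.083), Srgn (-0.35), Rab27b (-0.11) and Il1rl1 (0.50) overlapped between groups, and the median of the 11 was 0.20 (0.35 on the first strand alone). The summed level of the list, in which Kit dominates, ran from 91.7 to 106 CPM in controls and from 97.1 to 107 CPM with BMS493. Fcer1a, Mcpt9, Mrgprb1 and Mrgprb2 had no counts, and Ms4a2, Mcpt1, Mcpt2, Mcpt4 and Tpsab1 had at most 15 in any A/J library. In bulk lung, more cells of a type and more RNA per cell cannot be told apart, nor can fewer cells and less RNA per cell. Of 9 tested neutrophil and basophil genes none was called, and Prss34, a basophil protease gene, was at 0.193, 0.303, 0.273 and 0.284 CPM in controls and 0.649, 0.44, 2.6 and 0.655 CPM with BMS493 (2.02, SE 0.62, adjusted p = 0.256), with its highest value in the library with the most Hdc.

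**Figure D4:**
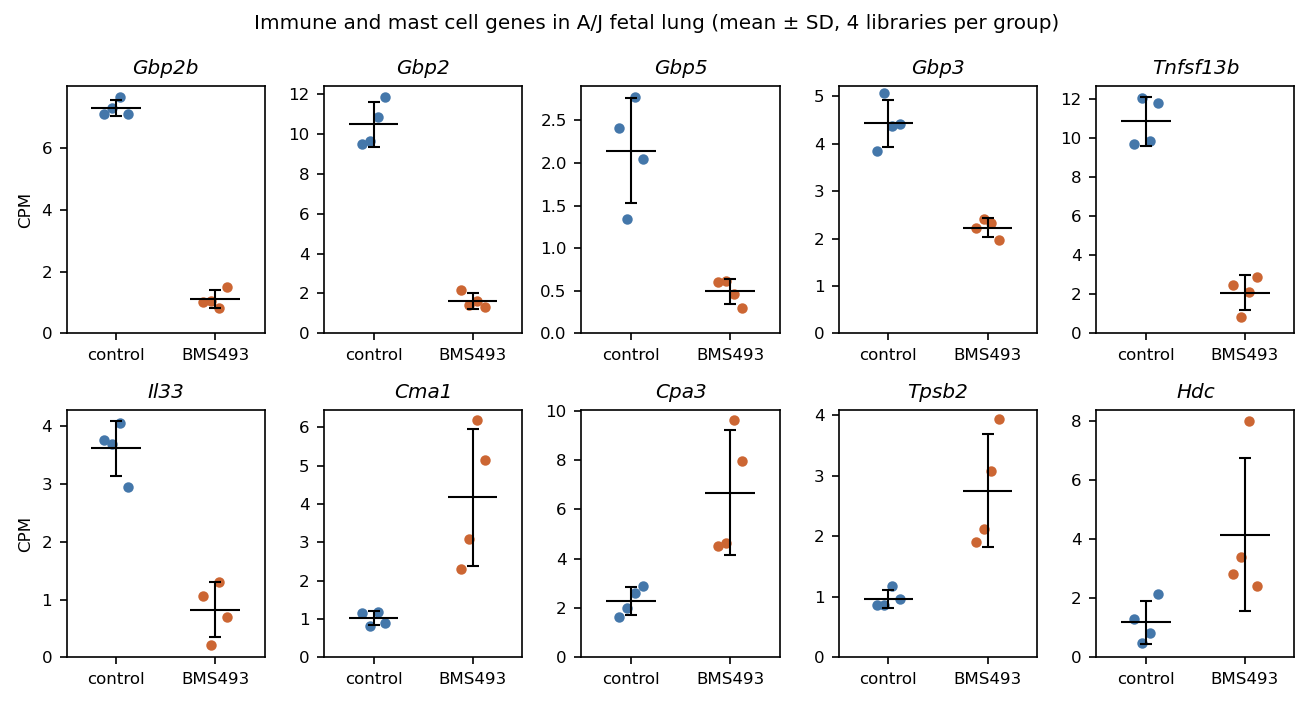
Levels (CPM, linear axes from 0, one scale per gene) of 10 immune and mast cell genes in the 4 control and 4 BMS493 lungs of A/J, each point 1 library, with the mean and SD as bars. The top row and Il33 are lower with BMS493, and Cma1, Cpa3, Tpsb2 and Hdc are higher with a wide spread among treated lungs.

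Myh8 (ENSMUSG00000055775, chromosome 11), a myosin heavy chain of perinatal skeletal muscle, had the highest fold change of all called genes (2.41, SE 0.47, adjusted p = 0.0105). Its levels were 0.723, 0.303, 0.182 and 0.0567 CPM in controls and 1.67, 2.07, 0.791 and 2.42 CPM with BMS493, or 15, 7, 4 and 1 and 36, 47, 17 and 48 counts. Control replicate 1 came close to BMS493 replicate 3. The call was lost without control replicates 2 and 3 and BMS493 replicate 4 (adjusted p up to 0.0622), and 12.1% of its 50-base windows also occur in another gene, mainly Myh2. Of 14 listed skeletal muscle genes 6 were tested, and Myh8 alone was called. Acta1 was at 1.34 (SE 0.58), Tnnt3 at 0.48, Ttn at 0.26, Mylpf at -0.024 and Tnni1 at -0.081. The summed level of the list was 6.58 to 10.1 CPM in controls and 9.72 to 12.5 CPM with BMS493. Myod1, Myog, Myf5, Pax7 and Ckm had at most 11 counts in a library. The part of muscle tissue in the Myh8 value was not tested.

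Signalling genes were examined next. Sfrp1 and Sfrp2 of the Wnt ligand, receptor and inhibitor list and Bambi of the Wnt target list fell. Sfrp1, whose protein binds Wnt ligands, measured 108, 105, 89.2 and 112 CPM in controls and 68.3, 47.3, 55.5 and 58.3 CPM with BMS493 (-0.85, SE 0.17, adjusted p = 0.0389). The related Sfrp2 measured 96.6, 88.9, 93.2 and 84.5 CPM and 64.1, 55.3, 66.05 and 73.2 CPM (-0.49, SE 0.10, adjusted p = 0.0292). The groups were well apart in both, yet the Sfrp1 call was lost without control replicates 1, 2 and 4 and BMS493 replicates 2, 3 and 4, and the Sfrp2 call without control replicates 1, 2 and 3 and BMS493 replicates 1, 2 and 3 (adjusted p up to 0.148 and 0.124). The Sfrp1 call was also lost without a filter on low counts (adjusted p = 0.0848) and in 6 of the 8 fits that left out 1 B6 library (up to 0.0664). The Sfrp2 call was also lost without B6 BMS493 replicate 3 (0.0645). With the library set as a covariate neither call held (0.0953 for Sfrp1 and 0.0511 for Sfrp2). They were the 2 genes called among 32 tested Wnt ligands, receptors and inhibitors (0.423% of all genes tested were called lower), whose median was 0.0017. Bambi, which encodes a decoy receptor for TGF-beta and BMP and is a Wnt target, held 74.3, 71.6, 74.8 and 74.8 CPM and 57.6, 62.8, 53.8 and 59.3 CPM (-0.34, SE 0.07, adjusted p = 0.0163). It was the 1 gene called among 15 tested Wnt targets, and the call was lost without control replicate 1 and BMS493 replicates 1 and 3 (adjusted p up to 0.115). Axin2, the usual readout of Wnt activity, measured 83.2, 78.8, 79.6 and 68.2 CPM in controls and 79.7, 90.7, 82.05 and 77.8 CPM with BMS493 (0.091, SE 0.076), and Lef1 was at -0.34 (adjusted p = 0.599). Dact1, which encodes a partner of Dishevelled, was called lower (-0.51, SE 0.10, adjusted p = 0.00874), but 33.7% of its windows also occur in another gene and the call was lost without BMS493 replicates 1 and 2 (adjusted p up to 0.0637).

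In the Hedgehog list 2 of 17 tested genes were called (0.486% of all genes tested), in opposite directions. Gas1, a co-receptor for Sonic hedgehog, went from 59.3, 56.97, 58.5 and 57.2 CPM to 35.4, 34.4, 37.6 and 45.3 CPM (-0.60, SE 0.09, adjusted p = 0.000405). The controls lay close together, well above the highest treated library. Foxf2 rose, as given above. The ligand gene Shh (0.036, SE 0.08), the receptor genes Ptch1 (-0.13) and Smo (0.065) and the target Gli1 (-0.026, SE 0.078) were not called, and the median was -0.027. Hhip, a target that binds the ligand, was higher without overlap but not called (0.19, adjusted p = 0.735).

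Egfr, Errfi1 and Dusp10, genes of kinase signalling, were called lower. Egfr, the receptor for epidermal growth factor, had 56.3, 62.1, 45.2 and 54.2 CPM in controls and 41.9, 38.4, 35.5 and 45.2 CPM with BMS493 (-0.44, SE 0.094, adjusted p = 0.0251). Control replicate 3 lay only just above BMS493 replicate 4, and the call was lost without control replicates 1, 2 and 4 and BMS493 replicates 1, 2 and 3 (adjusted p up to 0.172). Errfi1, a feedback inhibitor of that receptor, had 62.9, 65.5, 56.2 and 63.9 CPM and 47.6, 51.5, 46.3 and 48.3 CPM (-0.36, SE 0.071, adjusted p = 0.0105). That call was lost without control replicate 2 and BMS493 replicates 1 and 3 (adjusted p up to 0.0735). Dusp10, a phosphatase of stress kinases, had 15.2, 16.5, 14.3 and 12.4 CPM and 8.44, 7.92, 8.98 and 9.77 CPM (-0.74, SE 0.13, adjusted p = 0.00281), and this call held without any 1 A/J library. These 3 genes were in no list and were grouped after their values were seen.

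No gene was called in the lists of TGF-beta ligands (14 tested, with Thbs1 at -0.015 and Ltbp4 at 0.087), TGF-beta receptors and effectors (12, Ski 0.089 and Smad4 -0.058) or TGF-beta targets (17, Col3a1 0.11 and Col1a1 0.16). Medians of these 3 lists were 0.012, 0.0082 and 0.069. Lrrc32, whose protein docks latent TGF-beta on cells, was in none of them and was called lower (-0.60, SE 0.14, adjusted p = 0.046), though this was lost without control replicates 1, 2 and 3 and BMS493 replicates 1, 2, 3 and 4 (adjusted p up to 0.268). Among 29 tested BMP genes Grem1, a secreted BMP inhibitor, came nearest, at 1.78, 1.56, 1.37 and 1.25 CPM in controls and 2.41, 2.68, 3.35 and 4.33 CPM with BMS493 (1.09, adjusted p = 0.0759). Its groups did not overlap, and Fstl1 (0.0016) and Smad5 (-0.05) stand for the others.

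The 21 tested FGF genes had no call and a median of 0.072. Fgf10, the mesenchymal ligand that drives lung branching, measured 37.7, 36.5, 34.2 and 38.1 CPM in controls and 38.8, 44.9, 35.9 and 35.96 CPM with BMS493 (0.088, SE 0.079). Etv5, a target of FGF signalling in the distal tip, was at -0.26 (adjusted p = 0.0919), and Fgfr2 was at -0.074. The Notch list (18 tested, Dlk1 0.078 and Notch3 0.0083), the PDGF list (7, Pdgfra 0.081 and Pdgfrb -0.021) and the VEGF and angiopoietin list (17, Kdr -0.17 and Aplnr -0.11) held no called gene. The same was true of YAP and TAZ targets (10, Tead1 -0.033 and Ajuba 0.13) and insulin-like growth factor genes (17, H19 -0.036 and Igf2r 0.069). Medians of these 5 lists ran from -0.037 to 0.12.

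Several of the larger falls were in genes of synapses and excitable cells, a grouping made after the values were seen. Shisa9, an auxiliary subunit of AMPA receptors, held 13.8, 9.999, 9.02 and 11.5 CPM in controls and 3.66, 3.08, 4.14 and 2.06 CPM with BMS493 (-1.77, SE 0.17, adjusted p = 5.08e-07). Neto1, which does the same for kainate receptors, held 6.8, 6.84, 4.92 and 7.2 CPM and 1.81, 1.54, 2 and 2.57 CPM (-1.70, SE 0.22, adjusted p = 5.4e-05). Ntsr1, the neurotensin receptor gene, held 19.4, 19.6, 17.1 and 18.04 CPM and 6.91, 5.59, 6.79 and 7.5 CPM (-1.47, SE 0.21, adjusted p = 0.000792). All 3 showed clear gaps between the groups and kept their calls without any 1 A/J library. Dcx, a microtubule protein of young neurons, was at 57.8, 61.4, 49.3 and 66.2 CPM and 29.2, 26.001, 28.7 and 30.2 CPM (-1.04, SE 0.14, adjusted p = 0.000506). Gabra3, a GABA receptor subunit, fell by a like amount (-1.06, SE 0.24, adjusted p = 0.0457) but was lost without control replicates 2, 3 and 4 and BMS493 replicates 1, 2, 3 and 4 (adjusted p up to 0.199). Camk2n1, an inhibitor of CaM kinase II (-0.53), Itpr1, a calcium release channel (-0.41), and Arrb1, which encodes beta-arrestin 1 (-0.41), fell as well, and their calls held without any 1 A/J library.

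The list of neural crest, neuron and glia genes did not hold these excitable cell genes. None of its 23 tested members was called, with a median of -0.19 (-0.36 in replicates 1 and 2) and a summed level of 174 to 220.2 CPM in controls and 193 to 207 CPM with BMS493. Of the 23, 16 were lower. The 2 most abundant members, Erbb3 of glial precursors (0.02) and Gfra2, a receptor of enteric and airway neurons (0.48), were among the 7 that were higher, and Gfra2 was the highest of all. The next most abundant, Gfra1, was at -0.48 (adjusted p = 0.149), and the neuronal tubulin gene Tubb3 was at -0.53 (SE 0.32).

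Further falls are given together here as channels, transporters and enzymes, a grouping made after the values were seen. Slc14a1, a urea transporter gene on chromosome 18, measured 2.6, 1.6, 1.87 and 2.55 CPM in controls and 0.417, 0.704, 0.558 and 0.201 CPM with BMS493 (-2.16, SE 0.35, adjusted p = 0.00117). Neurl3, a ubiquitin ligase gene on chromosome 1, measured 4.58, 4.16, 4.33 and 4.99 CPM and 1.81, 1.41, 1.16 and 1.91 CPM (-1.52, SE 0.30, adjusted p = 0.0157). The groups were apart in both, and the Neurl3 call was lost without control replicates 1 and 4 and BMS493 replicates 2 and 3 (adjusted p up to 0.0935). Scnn1g, the gamma subunit of the epithelial sodium channel that clears lung fluid at birth, was at 6.9, 7.1, 8.24 and 5.45 CPM and 3.76, 3.83, 2.28 and 3.12 CPM (-1.09, SE 0.22, adjusted p = 0.0149), and was lost without control replicates 1, 2 and 3 and BMS493 replicates 3 and 4 (adjusted p up to 0.0934). Cyp7b1, which hydroxylates oxysterols (-1.15, SE 0.19), Cd38, which breaks down NAD (-1.11, SE 0.11), and Enpp1, which makes pyrophosphate (-1.11, SE 0.17), each fell by more than 1 on the log2 scale and kept their calls without any 1 A/J library. Their means went from 9.01 ± 1.61 to 4.06 ± 0.206, from 23.3 ± 1.01 to 10.8 ± 1.14 and from 8.99 ± 1.76 to 4.16 ± 0.942 CPM (SD, n = 4 each).

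Rbm46, an RNA-binding protein gene known from the germ line, fell from 45.3, 43.3, 36.3 and 50.3 CPM to 18.1, 17.9, 14.98 and 14.002 CPM (-1.43, SE 0.15, adjusted p = 5.88e-06). Asb4 (-0.91, SE 0.11) and Lbh (-0.66, SE 0.085), a transcription cofactor gene of the limb bud and heart, also kept their calls without any 1 A/J library. The amino acid and monocarboxylate carriers Slc38a5 (-0.46) and Slc16a12 (-0.60), the ferroptosis suppressor Aifm2 (-0.55), the transaminase Kyat3 (-0.52) and the lipase Mgll (-0.34) fell by smaller amounts. Of these 5, Slc38a5 alone kept its call without any 1 A/J library, and Kyat3 was lost in all 8 such fits (adjusted p up to 0.185). Slc16a12 was lost without control replicate 2 and BMS493 replicates 1 and 3 (up to 0.11), Aifm2 without control replicates 1, 2 and 3 and BMS493 replicates 1, 2 and 3 (up to 0.182) and Mgll without control replicates 1, 2 and 3 and BMS493 replicates 2, 3 and 4 (up to 0.193). The 3 called genes that are not protein-coding fell outside the naming rule and are given because they are few. They were the pseudogene Zfp36l1-ps (-2.37, SE 0.49, adjusted p = 0.0182) and the long noncoding RNAs AC160336.1 (-0.99) and Gm20186 (-0.52), of which the last shares 77.2% of its windows with another gene. The pseudogene was lost without control replicates 1 and 2 and BMS493 replicates 2 and 4 (adjusted p up to 0.11), and AC160336.1 without control replicates 1, 2 and 4 and BMS493 replicates 2, 3 and 4 (up to 0.148).

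Ccbe1, Cfi, Ecm1, Plat and Ogn, whose proteins are released from cells, were called lower and are given together, a grouping made after the values were seen. Ccbe1, a secreted protein that lymphatic growth through VEGF-C depends on, went from 22.9, 22.8, 21.7 and 23.8 CPM to 11.2, 9.15, 9.91 and 10.7 CPM (-1.16, SE 0.11, adjusted p = 5.06e-07), with very even values in each group. Beside it, none of 10 tested lymphatic endothelial markers was called. Their median was -0.17, 8 were lower, and Nrp2 (-0.16) and Mmrn1 (0.013) stand for them. Cfi, which encodes complement factor I, fell from 15.6, 15.7, 12.3 and 12.7 CPM to 8.16, 9.02, 7.3 and 8.81 CPM (-0.76, SE 0.11, adjusted p = 0.000506) and was the 1 gene called among 17 complement genes (median -0.035). Ecm1, a matrix glycoprotein, fell from 9.8 ± 1.54 to 5.29 ± 1.14 CPM (-0.89, SE 0.14, adjusted p = 0.00107). The plasminogen activator gene Plat (-0.70, SE 0.13) and the proteoglycan gene Ogn (-0.63, SE 0.10) fell too, and these calls held without any 1 A/J library.

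Loxl2, a lysyl oxidase relative that cross-links collagen, was the 1 gene called among 17 elastic fibre genes, from 111 ± 2.78 to 89.8 ± 3.3 CPM (-0.30, SE 0.067, adjusted p = 0.0306). It was lost without control replicates 1, 2 and 4 and BMS493 replicates 1, 2, 3 and 4 (adjusted p up to 0.137), and 45.01% of its windows also occur in another gene. Elastin (Eln) was at 0.20 (SE 0.30) and Fbn2 at 0.029. Of 41 tested collagen chains none was called (median 0.047, 27 higher), and of 25 matrix proteases and inhibitors none was (median 0.029, Mmp14 0.0047 and Mmp2 -0.24). Small falls were called in genes of the actin cytoskeleton and adhesion, grouped after their values were seen. These were Fblim1 (-0.36), Pdlim7 (-0.34), Cfl2 (-0.32), Add3 (-0.28) and Pdzrn3 (-0.34), of which Pdzrn3 alone kept its call without any 1 A/J library. Fblim1 was lost without BMS493 replicate 3 (adjusted p up to 0.0529), and Pdlim7 without control replicates 1, 2 and 3 and BMS493 replicates 1, 2 and 3 (up to 0.131). Cfl2 was lost without control replicates 2 and 4 and BMS493 replicates 1, 2 and 4 (up to 0.136), and Add3 without control replicate 2 and BMS493 replicate 2 (up to 0.0659).

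Fibin, Tnfaip8l3 and Plxdc1 rose, and are given together as genes of no shared list. Fibin, a secreted protein gene, went from 33.7, 30.6, 29.4 and 28.8 CPM to 41.003, 50.2, 60.1 and 48.4 CPM (0.70, SE 0.10, adjusted p = 0.000378). Tnfaip8l3, a lipid transfer protein gene, went from 1.01, 1.39, 0.865 and 1.25 CPM to 2.69, 2.99, 3.26 and 3.42 CPM (1.45, SE 0.24, adjusted p = 0.00167). Plxdc1, a plexin domain receptor gene, went from 1.74, 1.39, 1.18 and 1.36 CPM to 3.76, 3.34, 4.19 and 2.52 CPM (1.28, SE 0.23, adjusted p = 0.0045). Treated libraries were above every control in all 3, and the calls held without any 1 A/J library, although on the first strand alone Plxdc1 did not pass (adjusted p = 0.056). Plxdc1 was the 1 gene called among 36 semaphorin, plexin and slit genes (median 0.013).

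Further called genes, each lower by less than 1, were Art4 (-0.99), Vsir (-0.71), Snx22 (-0.70), Pdzd2 (-0.54), Resf1 (-0.40), Zfp827 (-0.39), Enpep (-0.36), 1700017B05Rik (-0.33), St6gal1 (-0.28) and Rbpms (-0.28). Of these 10, Vsir and Zfp827 kept their calls without any 1 A/J library. The others were lost in 1 to 6 of the 8 fits, namely Art4 without control replicate 1 and BMS493 replicates 2 and 3 (adjusted p up to 0.0859), Snx22 without control replicates 1, 2 and 3 and BMS493 replicates 1 and 3 (up to 0.16) and Pdzd2 without control replicates 1 and 2 and BMS493 replicates 3 and 4 (up to 0.102). Resf1 was lost without BMS493 replicate 2 (up to 0.0575), Enpep without control replicates 1 and 3 and BMS493 replicates 2, 3 and 4 (up to 0.168) and 1700017B05Rik without control replicates 1 and 2 and BMS493 replicates 3 and 4 (up to 0.148). St6gal1 was lost without control replicates 1, 2 and 3 and BMS493 replicates 1, 2 and 3 (up to 0.165) and Rbpms without control replicates 1, 2 and 3 and BMS493 replicates 2, 3 and 4 (up to 0.209). Vsir encodes an immune checkpoint receptor, Enpep an aminopeptidase and St6gal1 a sialyltransferase. Snx22 depended on how strands were counted, since its fold change on the first strand alone was -0.10 (adjusted p = 0.974) and 28.5% of its exon bases overlap another gene.

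Markers of cell types, which also check the tissue label, held few calls. The lung epithelial factor Nkx2-1 measured 175, 176, 195 and 162 CPM in controls and 207, 231, 191 and 178 CPM with BMS493 (0.19, SE 0.10), and surfactant protein C (Sftpc) measured 92.4, 77.8, 101 and 53.5 CPM and 86.9, 109, 75.95 and 75.05 CPM (0.10, SE 0.40). Both mark lung, both were present in all 8 libraries, and their groups overlapped. No gene was called among 18 distal tip, 9 alveolar type 1, 13 pan-epithelial, 14 proximal airway and 9 neuroendocrine markers. The distal tip genes had 15 of 18 higher and a median of 0.10, while Etv5 was at -0.26 and Foxp2 at 0.025. The others were represented by Cav1 (0.22) and Akap5 (0.16), by Epcam (0.087), by Cftr (0.032) and Sox2 (-0.10), and by Uchl1 (-0.042) and Ddc (-0.23), with medians from -0.13 for proximal airway (0.034 without control replicate 2) to 0.041 for pan-epithelium.

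Airway smooth muscle was of interest because the series concerns airway hyperresponsiveness. Of 16 tested genes 14 were lower, with a median of -0.11, and none was called. Acta2, smooth muscle actin, measured 489, 449.5, 490.1 and 405 CPM in controls and 413, 426, 352 and 373 CPM with BMS493 (-0.23, SE 0.072, adjusted p = 0.258). Control replicate 4 lay among the treated libraries. The myosin light chain gene Myl9 came nearest to the threshold (-0.29, adjusted p = 0.138). Actg2 was at -0.20 (adjusted p = 0.272), Cald1 was at -0.11 and the regulator Myocd at -0.11. Of 29 tested receptors that set airway tone, 22 were lower (median -0.10) and none was called. The muscarinic receptor gene Chrm2, which limits acetylcholine release from airway nerves, was at 10.9, 8.48, 6.7 and 11.2 CPM in controls and 15.5, 15.4, 15.6 and 14.2 CPM with BMS493, all treated libraries higher, and just missed the threshold (0.71, SE 0.17, adjusted p = 0.0564). Chrm3, through which airway muscle contracts, was at -0.30 (SE 0.28), and the endothelin receptor genes Ednra and Ednrb were at -0.14 and -0.19.

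Other mesenchymal, vascular and blood markers held 2 calls, Hoxa5 and Meox2, both in the list of lung mesenchyme and fibroblasts (18 tested, median 0.012). There was none among 14 genes of pericytes and vascular smooth muscle, 16 of mesothelium (Podxl -0.0086 and Cdh3 -0.016), 15 of cartilage (Fmod -0.0046 and Sox9 -0.07), 25 of vessel endothelium (Ephb4 -0.055 and Cdh5 -0.022), 20 of macrophages and monocytes (Mrc1 -0.064 and Lyve1 -0.42) or 19 of erythroid cells (Hba-a1 -0.054 and Hbb-bs -0.079). The same held for 6 genes of lymphoid cells (Ebf1 -0.053 and Rora -0.052), 8 of megakaryocytes (Pf4 0.29 and Itga2b -0.12) and 23 chemokine genes (Cxcl12 -0.014 and Cxcr4 -0.088). Lymphocyte markers Cd3e, Ms4a1, Klrb1c and Ncr1 had no counts. For vessel endothelium 18 of 25 were lower (median -0.10). The mesothelial factor Wt1, which had 18.5, 15.6, 16.5 and 21.3 CPM in controls and 12.8, 12.4, 14.6 and 14.7 CPM with BMS493, was lower without overlap but not called (-0.40, adjusted p = 0.572).

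**Figure D5:**
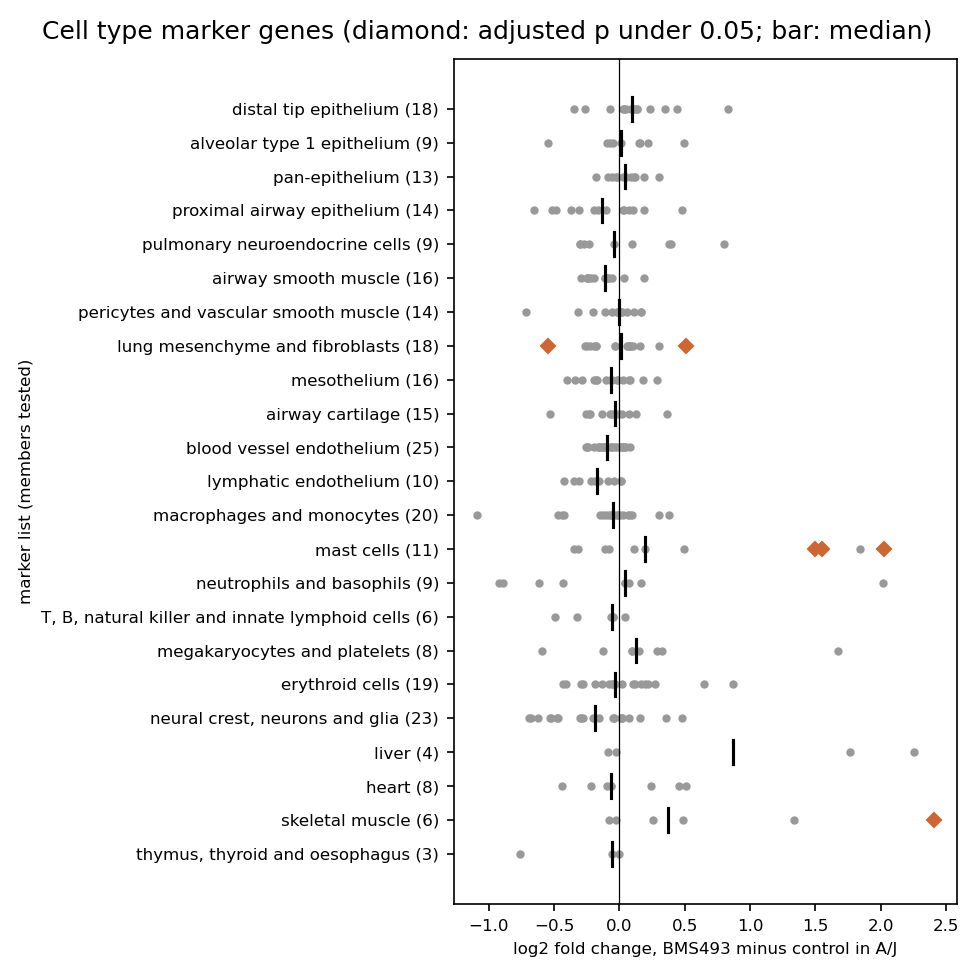
Log2 fold change (BMS493 minus control in A/J, horizontal axis) of the tested genes in 23 cell type marker lists (rows, with the number tested), each point 1 gene, a diamond for an adjusted p under 0.05 and a bar at the median. Called genes appear in the rows for mast cells, skeletal muscle and lung mesenchyme, and the wide rows for liver and neutrophils hold few genes at low levels.

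Tissue carried over at dissection and RNA quality were looked at in the same way. Of 13 listed liver genes 4 were tested and none was called, with a median of 0.87. The 2 most abundant, Trf (-0.027) and Afp (-0.085), were near 0, and the third, Alb, measured 0.193, 0.173, 0.319 and 0.113 CPM in controls and 0.186, 1.63, 0.186 and 0.806 CPM with BMS493 (1.77, SE 1.01, adjusted p = 0.923). It was highest in BMS493 replicates 2 and 4, and the remaining liver gene had at most 2 counts in a library. No heart (8, Actc1 -0.068 and Myh6 0.45) or thymus, thyroid and oesophagus gene (3, Ccl25 -0.054) was called. Of 25 proliferation genes none was called (median -0.02, with Mki67 at 0.029). Nor was any called among 22 hypoxia and glycolysis genes (Gapdh -0.0095 and Pkm 0.025) or 20 cholesterol synthesis genes (Srebf2 0.0074). All 11 tested mitochondrially encoded genes were lower, with a median of -0.35 and none called. Their summed level was 10435 to 13977 CPM in controls and 9453 to 10978 CPM with BMS493, and mt-Co1 was at -0.29 (SE 0.27). The part of this shift in the other results was not tested. Immediate early and heat shock genes had 16 of 21 higher and a median of 0.10, with Hsp90aa1 at 0.017 and Hsph1 at 0.19. The 4 Y-linked genes were present in every library and not called.

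Side by side with B6, which had its own controls, the genes called in A/J mostly had the same sign. Of the 84, 81 had the same sign in B6, 75 had the larger change in A/J, and 29 were also called in B6 (0.423% of all genes tested there). The 81 include Gbp2b and AC160336.1, which were nearly absent from B6, with control means of 0.033 and 0.010 CPM. Their sign there carries little weight. The 84 were chosen by their call in A/J, so the larger change there is a description. A difference between strains was tested by the interaction, which called 1 of 17276 genes (0.00579%). The 1 called was Gbp2, which went from 10.5 ± 1.1 to 1.63 ± 0.389 CPM in A/J (SD, n = 4 each), while in B6 the means were 2.49 ± 0.412 and 1.73 ± 0.285 CPM, a difference between the log2 fold changes of -2.16 (adjusted p = 0.000737). With DESeq2 the interaction called 2 genes, and with replicates 1 and 2 only or 3 and 4 only it called 0 (928 and 388 genes at an unadjusted p under 0.05). Lrat was called lower in B6 as well (-2.51, SE 0.35, adjusted p = 0.000514 by the same edgeR test). Its means there went from 1.38 ± 0.41 to 0.248 ± 0.0902 CPM, against 16.5 ± 1.87 to 0.355 ± 0.181 CPM in A/J. The treated means were low in both strains, while the control means differed. For Lrat the interaction was -3.02 and did not pass (adjusted p = 0.0834).

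Cyp26b1 (-4.24 in A/J and -3.68 in B6), Il33 (-2.13 and -1.78), Ntsr1 (-1.47 and -1.49), Dcx (-1.04 and -0.98), Tbx3 (-0.35 and -0.34) and Plxdc1 (1.28 and 1.64) were called in both strains. The mast cell genes were called in A/J and not in B6, at 0.79 for Cma1, 0.29 for Cpa3 and 0.32 for Tpsb2, but their interactions of 1.23, 1.26 and 1.18 did not pass (adjusted p = 0.999 each). The 3 genes with the opposite sign in B6 were Myh8 (-0.17), Dact1 (0.069) and Slc16a12 (0.055), and none of their interactions passed either (adjusted p = 0.999, 0.903 and 0.999). Gbp2b was at or under 3 counts in all B6 libraries, so no fold is given for that strain.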

How the data were processed

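Poly(A) mRNA was sequenced from 16 whole fetal lungs, and the 4 A/J control and 4 A/J BMS493 libraries were compared. The deposited files are raw counts of fragments per gene as the authors made them, with a column regardless of strand (used here) and 2 stranded columns. FastQC, cutadapt, STAR and the build GRCm39 are named in the submitters' processing notes, while tool versions and the annotation are not given in the sources used here. Groups came from the labels. Rows that name no gene were left out of library sizes. Between 17468843 and 23139892 counts per A/J library were assigned to genes, so low genes carry wide errors.

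All 16 libraries were fitted with 1 coefficient per group in edgeR 4.0.16 (R 4.3.3, filterByExpr, TMM scaling, robust quasi-likelihood F test, 12 residual degrees of freedom), with Benjamini-Hochberg adjustment over 17276 genes. The fit was tested on simulated data. A standard error is the fold change divided by the square root of F. DESeq2 1.42.0 served as an alternative. Tables were made with pandas 2.3.3 in Python 3.11.15. Of 57180 gene rows, 51884 matched the GENCODE M21 annotation by identifier, which gave gene types and overlaps. Windows of 50 bases were used for shared sequence, since read length is not given in the sources used here. No coordinate of M21 is printed.

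Called protein-coding genes with a mean of at least 1 CPM and groups that did not overlap could be named. Of these the 15 lowest and the 15 highest are described with values (11 were higher), besides called transcription factors and list members. The 2 most abundant members stand for a list without a call, and the tested retinoid genes are named, except that a few genes the rule would name are not reported here. Other genes without a call, and the groupings so marked, were chosen after their values were seen. The members, gene lists and tests were chosen with earlier results of these data known.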

Additional observations from a re-analysis of the deposited data

Results flagged for a closer look

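In each A/J group the highest and the lowest of the 4 libraries were checked for a gap to the nearest other library that takes up more of the group's range than Dixon's 95% limit allows. This was done for the called coding genes, and 6 of 162 groups passed, where chance flags about 1 in 20. In Pou3f1 the share was 0.913, since BMS493 replicate 4 measured 1.21 CPM against 0.698 to 0.742 CPM in the others. In Slc38a5 it was 0.959, with BMS493 replicate 2 at 34.4 CPM against 39.5 to 39.8 CPM. In Klf3 it was 0.863, with BMS493 replicate 2 at 95.5 CPM against 84.0 to 85.6 CPM. Among controls, Bambi had a share of 0.845 (replicate 2 at 71.6 CPM against 74.3 to 74.8 CPM), Pdlim7 one of 0.834 (replicate 4 at 97.3 CPM against 113 to 116 CPM) and Meox2 one of 0.848 (replicate 2 at 47.1 CPM against 41.3 to 42.2 CPM). None of these libraries overlapped with the other group, which the choice of genes without overlap had fixed in advance.

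The BMS493 effect on Gbp2 differed between strains by -2.16 on the log2 scale (A/J minus B6, adjusted p = 0.000737 by the edgeR interaction), the 1 gene for which this test passed.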

How the results depend on the processing

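The 84 calls became 133 with the 8 A/J libraries alone, 158 with DESeq2, 178 without a filter on low counts, 36 in replicates 1 and 2 only and 21 in replicates 3 and 4 only. Leaving out 1 A/J library gave 52 to 90 calls, and leaving out 1 B6 library, an alternative added after seeing the data, gave 77 to 121. Of the 84, 82 remained with the 8 A/J libraries, 84 with DESeq2, 28 in replicates 1 and 2 and 20 in replicates 3 and 4. No fold change of a called gene reversed under any alternative, and 11 kept their call under all of them. Of 1560 list medians under an alternative, 38 moved by more than their spread. The interaction called 2 genes with DESeq2, 12 without a filter and 0 in either pair of replicates, where few libraries remain. Leaving out 1 library it called 1 to 2, with 2 without A/J BMS493 replicate 3 and without B6 control replicate 3. With replicate numbers as a block within strain, 71 genes were called and 68 of the 84 remained, and the interaction called 1. Same-numbered control and BMS493 libraries deviated together with correlations of -0.0244, 0.0546, 0.0899 and 0.00756. Differently numbered ones had correlations from -0.118 to 0.0884. Such correlations over all genes cannot tell whether the numbers pair the libraries. Genes with few counts, such as Myh8, Gbp5 and Hoxc5, have the widest errors at this depth.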
